A study of Neurospora crassa with 12 samples.

Results

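Of the 12 RNA sequencing libraries of the study, the 6 made from *cys-3*- cells of the filamentous fungus *Neurospora crassa* are described here, 3 from cells starved for sulfur and 3 from cells in medium with 24 μM sulfate. All 6 were chosen by their strain label alone, and the other 6 libraries come from wild-type cells in the same media, again 3 in each. The question was how much of the transcriptional response to sulfur starvation is left in cells without the transcription factor CYS-3. In the mutant, a homokaryotic strain of mating type a from the deletion collection, part of the *cys-3* gene gave way to a cassette for hygromycin resistance, and the wild type was of mating type a too. All cultures grew for 24 h in Vogel's minimal medium that by the labels also held methionine at 500 mg/L, were washed, and were then kept for 4 h without any sulfur source or with 24 μM sulfate before the mycelia were harvested. Values are FPKM, that is reads scaled to transcript length and to library size, from unstranded reads of poly(A) RNA, and the 3 libraries of a group are independent cultures.

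Fungi take up inorganic sulfate through permeases and reduce it stepwise to sulfide, from which cysteine and methionine are made. In *N. crassa*, CYS-3 is a bZIP protein known to switch on genes for sulfur uptake and for the use of other sulfur compounds when sulfur is short. When sulfur is ample, CYS-3 is destroyed through a ubiquitin ligase that holds the F-box protein SCON-2 and the SKP1 protein SCON-3.

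The *cys-3*- libraries held an estimated 7876016 to 8964222 reads in starvation and 7326804 to 8002929 reads in 24 μM sulfate, against 7616626 to 11249456 reads in the wild-type libraries. Reads still fell on *cys-3* (NCU03536; NC12, chromosome II, 326313 to 331203) in every mutant library, at 71.1, 72.2 and 73.7 FPKM in starved cells, against 74.9, 77.2 and 79.7 FPKM in 24 μM sulfate. The locus shares 1563 bp with NCU03535 and the values do not show where in the gene the reads lie, so this level is no check of the deletion. NCU03534, which lies near *cys-3* (chromosome II, 333578 to 334814), separated the strains. Its means were 13.4 and 11.7 FPKM in starved and sulfate-grown mutant cells and 1.61 and 0.0384 FPKM in wild type in the same media. The 3 genes of the other mating type (mat A) were at 0 FPKM in all 12 libraries. Of the conidiation genes, *con-6*, *con-8*, *con-10* and *con-13* did not reach the 10 FPKM minimum for testing, and the hydrophobin gene *eas* averaged 22.5 ± 2.37 FPKM in starved mutant cells and 29.8 ± 8.09 FPKM in mutant cells in 24 μM sulfate (SD, n = 3 each).

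Few genes differed with starvation in the mutant. Among 5035 tested genes, 21 (0.417%) differed between starved *cys-3*- cells and *cys-3*- cells in 24 μM sulfate at an adjusted p under 0.05 (limma, Benjamini-Hochberg over all tested genes), 16 higher and 5 lower in starvation. In wild type, 1160 genes (23%) passed the same test, 558 higher (11.1%) and 602 lower (12%) in starvation. At a 2-fold or larger ratio of group means, 1 gene (0.0199%) was called higher and 0 were called lower in the starved mutant, against 140 rises (2.78%) and 17 falls (0.338%) in wild type. At 1.5-fold or larger, 4 rises (0.0794%) and 3 falls (0.0596%) were called in the mutant, 0.139% of tested genes in all. The response itself differed between the strains (interaction, adjusted p under 0.05) for 698 genes (13.9%), and for 160 genes (3.18%) by 2-fold or more, of which 22 (0.437%) had the higher and 138 (2.74%) the lower response in the mutant.

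The median SE of a log2 difference was 0.09 in either strain, because the fit pools the spread of all groups. Single libraries deviated from their group with an SD over genes of 0.077 to 0.135 in the mutant and 0.116 to 0.187 in wild type. The pooled spread thus does not measure each strain's own precision, and a fit of only the mutant groups passed 64 genes. In the mutant the 95% interval lay within 1 log2 unit of 0 for 4965 of the 5035 genes (98.6%). This is within 2-fold either way on the FPKM + 1 scale. Across genes, the log2 differences had an SD of 0.18 in the mutant and 0.62 in wild type, with r = 0.10 between both (Pearson, over 5035 genes, which are not independent replicates). Smaller differences were frequent in the mutant: 851 genes (16.9%) had an unadjusted p under 0.05. The count of 21 also rested on single libraries, as it was 0 without any 1 of starved mutant replicates 1, 2 or 3 or without mutant 24 μM replicate 1, 2 without mutant 24 μM replicate 2, and 48 without mutant 24 μM replicate 3. Leaving out a wild-type library, which enters through the shared estimate of spread and the choice of tested genes, gave 3 (24 μM replicate 3), 4 (starved replicate 3) and 50 (24 μM replicate 2) genes, and 16 to 21 for the other libraries.

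**Figure D1:**
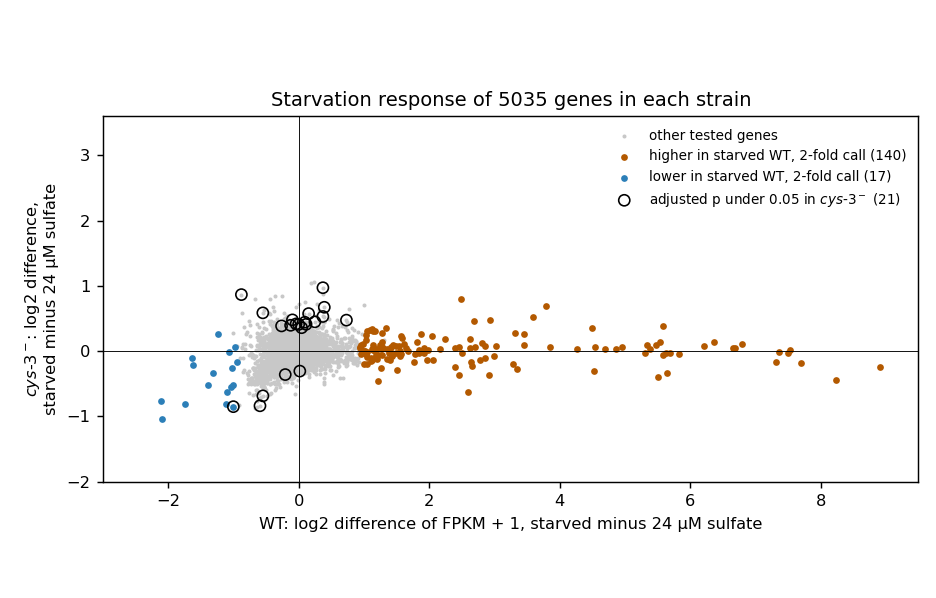
Starvation response of each tested gene (starved minus 24 μM sulfate, log2 of FPKM + 1) in *cys-3*- cells (vertical axis) and in wild type (WT, horizontal axis), with the 140 genes called higher and 17 called lower in starved wild type coloured and the 21 genes with an adjusted p under 0.05 in *cys-3*- circled. The 140 genes spread far along the wild-type axis but stay between -0.63 and 0.80 on the mutant axis.

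The genes of the CYS-3 circuit did not move detectably with starvation in the mutant. *scon-2* (NCU08563), the F-box gene, had 12.6, 12.4 and 12.9 FPKM in starved *cys-3*- cells, against 11.9, 12.8 and 13.3 FPKM in *cys-3*- cells in 24 μM sulfate. These ranges overlap, and the log2 difference was 0.00 (95% interval -0.28 to 0.28, adjusted p = 0.992, limma). In wild type *scon-2* rose 3.13-fold, and the responses differed by -1.55 on the log2 scale (mutant minus wild type, adjusted p = 1.2e-04, limma). *scon-3* (NCU08991), the SKP1 gene, stood at 292, 296 and 287 FPKM in the starved mutant, against 289, 335 and 325 FPKM in the mutant in 24 μM sulfate. Its interval of -0.33 to 0.11 includes 0 (adjusted p = 0.59, limma). For the interrupted *cys-3* gene itself the log2 difference was -0.09 (interval -0.27 to 0.08) in the mutant, whereas in wild type the starved libraries had 132, 146 and 162 FPKM, against 66.3, 66.6 and 58.7 FPKM in 24 μM sulfate.

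The 5 genes that take sulfate to sulfide all rose in starved wild type, and 0 of 5 passed in the mutant. ATP sulfurylase gene *cys-11* (NCU01985), which activates sulfate, had 95.3, 92.0 and 95.3 FPKM in starved mutant cells, against 96.3, 103 and 102 FPKM in mutant cells in 24 μM sulfate (log2 difference -0.09, interval -0.33 to 0.15). The starved libraries all lay below those with sulfate, by an amount the test did not separate from 0. *cys-5* (NCU02005), for reduction of activated sulfate to sulfite, was at 3.09, 2.19 and 2.83 FPKM in the starved mutant, against 3.45, 3.08 and 2.89 FPKM in the mutant with sulfate. It thus stayed near 3 FPKM, where starved wild type had 98.6 to 107 FPKM and wild type with sulfate 19.9 to 41.5 FPKM. The sulfite reductase genes *cys-2* (log2 difference 0.01, interval -0.42 to 0.43) and *cys-4* (-0.10, interval -0.33 to 0.13) and the APS kinase gene *adsk-1* (0.08, interval -0.22 to 0.39) did not pass in the mutant. The responses of *cys-11*, *cys-5*, *cys-2* and *cys-4* differed between the strains (adjusted p from 5.9e-04 to 0.0158, limma), and that of *adsk-1* did not pass (adjusted p = 0.0733).

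Of 8 tested genes for known and predicted sulfur transporters, 0 passed in the mutant and 6 rose in wild type. *cys-14* (NCU04433; chromosome IV, 3375754 to 3380167), for a sulfate permease, had 1.70, 1.01 and 1.29 FPKM in starved *cys-3*- cells, against 0.931, 0.977 and 1.74 FPKM in *cys-3*- cells in 24 μM sulfate. Its log2 difference was 0.08 (interval -0.64 to 0.80, adjusted p = 0.931, limma), against an 81.9-fold rise in wild type, where starved cells reached 296 to 388 FPKM. Of the 8 genes, 1 had mutant groups that did not overlap, against 16.4% (lower) and 12.7% (higher) of all tested genes. This was the second sulfate permease gene, *cys-13* (NCU03235), and it was lower in starvation. It had 0.898, 0.764 and 0.988 FPKM in starved mutant cells, against 1.48, 1.71 and 1.55 FPKM in mutant cells with sulfate (log2 difference -0.45, interval -1.03 to 0.13, adjusted p = 0.402, limma). Wild type raised *cys-13* 2.27-fold. The predicted methionine permease genes *aap-7* (NCU04942) and *aap-10* (NCU07754) stayed at 9.57 to 12.4 FPKM and at 6.54 to 7.93 FPKM in the 6 mutant libraries, with rises of 10.3-fold and 9.10-fold in wild type. For the chromate transporter gene *trm-50* the mutant libraries had 1.82 to 2.71 FPKM in starvation and 1.46 to 2.78 FPKM in 24 μM sulfate. *aap-23*, at most 0.157 FPKM in the mutant, shares 2253 bp with NCU02194, so its values are uncertain. *cys-23* and NCU09642, predicted sulfate transporter genes, passed in neither strain and had mutant log2 differences of -0.01 and -0.04.

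**Figure D2:**
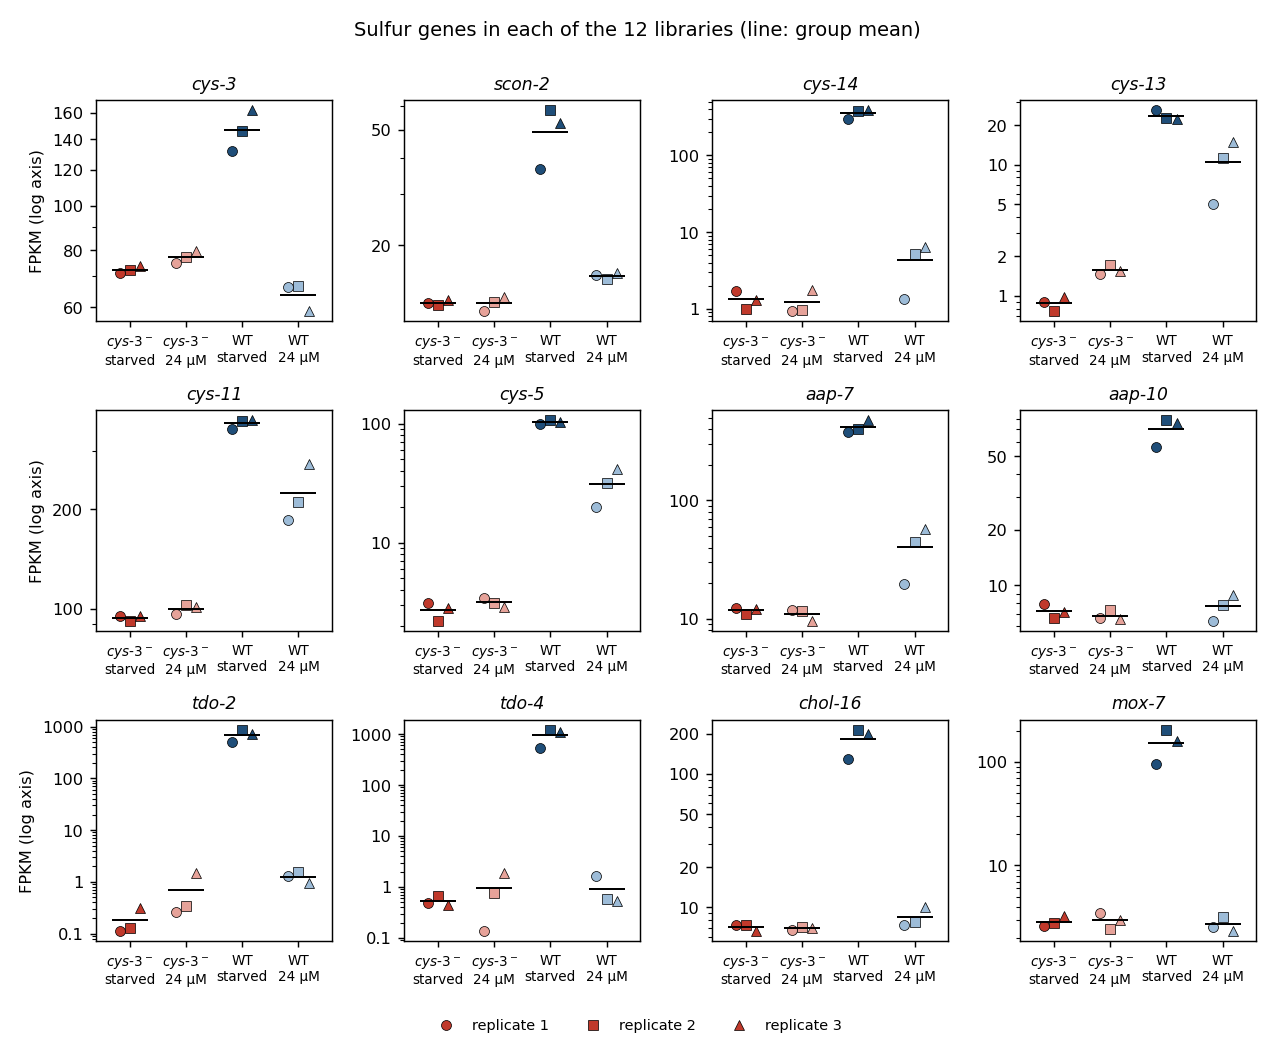
FPKM on log axes for 12 sulfur genes in each library (symbols for replicates 1 to 3, line at the group mean), from left to right starved *cys-3*-, *cys-3*- in 24 μM sulfate, starved wild type (WT) and wild type in 24 μM sulfate. The groups of the mutant overlap except for *cys-3*, *cys-13* and *cys-11*, which did not pass the test, and the starved wild-type libraries lie above the wild-type libraries with sulfate in all 12 panels.

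Several genes for sulfur sources other than sulfate were at low levels in both mutant groups. Other members were not, as the whole list of 21 genes summed to 226 to 239 FPKM in starved mutant libraries. In mutant libraries with sulfate it summed to 211 to 215 FPKM. Choline sulfatase gene *chol-16* (NCU08364) had 7.33, 7.34 and 6.67 FPKM in starved *cys-3*- cells, against 6.73, 7.11 and 6.98 FPKM in *cys-3*- cells with sulfate, and its interval (-0.31 to 0.37) excludes the 21.7-fold rise of wild type. The alkanesulfonate monooxygenase gene *mox-7* (NCU10015) was at 2.59, 2.78 and 3.28 FPKM in the starved mutant, against 3.51, 2.44 and 2.97 FPKM in the mutant with sulfate. The groups overlap for both genes. Taurine dioxygenase genes, for release of sulfite from taurine, reached 502 to 873 FPKM (*tdo-2*) and 524 to 1226 FPKM (*tdo-4*) in starved wild type. In the starved mutant they had 0.114 to 0.317 and 0.440 to 0.656 FPKM, and in the mutant with sulfate 0.258 to 1.46 and 0.139 to 1.92 FPKM. *tdo-5* had 2.91, 3.84 and 3.41 FPKM in starved mutant cells, against 5.08, 3.92 and 4.53 FPKM in mutant cells with sulfate, so the starved libraries were all lower (log2 difference -0.33, adjusted p = 0.411, limma). The arylsulfatase gene *ars-1* did not exceed 0.302 FPKM in any mutant library, nor *suc-2*, a further predicted taurine dioxygenase gene, 0.234 FPKM, while starved wild type had 73.1 to 121 and 60.8 to 215 FPKM. At such levels a gene can rest on a few reads, so small changes of it would not have been detectable at this depth.

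The same held across the lists of genes that the study drew up, some of them from these wild-type libraries, so their wild-type direction is not independent evidence. In the mutant 45.7% of all tested genes had a log2 difference above 0 and the median was -0.01. The medians of sulfur regulation (3 tested genes, -0.09), sulfate to sulfide (5, -0.09), sulfur transporters (8, 0.07), other sulfur sources (14, 0.11), proteases (14, 0.05), nitrogen and nucleic acid use (13, 0.06) and other transporters (23, 0.04) lay on both sides of it. In each of these 7 lists 0 genes passed in the mutant, by limma or by limma-voom. At an unadjusted p under 0.05, which 16.9% of all tested genes reached, limma gave 0 genes in sulfur regulation, sulfate to sulfide, sulfur transporters, proteases and nitrogen and nucleic acid use. It gave 1 in other sulfur sources and 6 in other transporters. Wild-type medians of the same lists were 1.19, 0.72, 3.24, 4.79, 2.68, 1.42 and 2.93. Of 43 tested genes of cysteine and methionine metabolism, 0 passed in the mutant by either tool (median -0.05; 8 at an unadjusted p under 0.05). In wild type 13 of them rose (30.2%, against 11.1% of all tested genes) and 6 fell (13.95%, near the 12% of all tested genes). All 7 glutathione genes had mutant differences below 0 (54.3% of all tested genes did), with the glutathione transferase genes *gst-1* (-0.65, adjusted p = 0.15, limma) and *gst-4* (-0.56, adjusted p = 0.144, limma) farthest from 0. Among 363 tested genes whose promoters bound CYS-3 in vitro, 2 (0.551%) passed in the mutant, a share near the 0.417% of all tested genes, and their median was 0.01. In wild type 110 of them rose (30.3%, against 11.1% of all tested genes) and 32 fell (8.82%, against 12%).

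**Figure D3:**
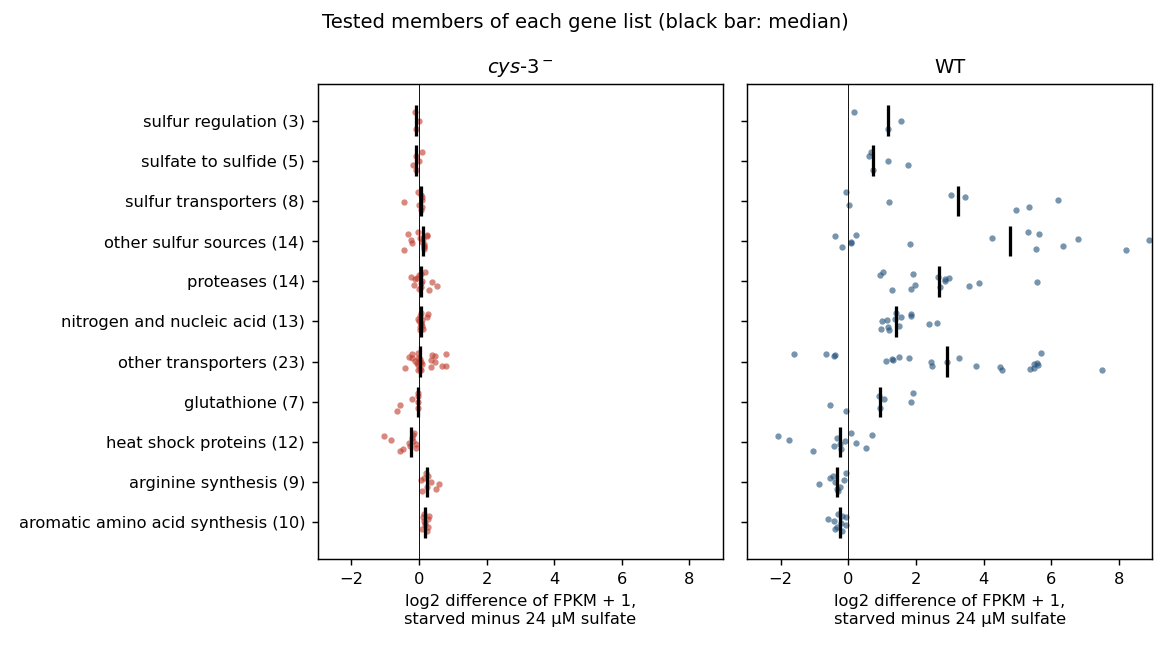
Log2 difference (FPKM + 1, starved minus 24 μM sulfate) of each tested member of the gene lists, with the number tested in parentheses and a black bar at the median, in *cys-3*- (left) and wild type (right). The mutant points gather around 0 in the sulfur lists, with medians of -0.09 to 0.11, while the wild-type medians of the same lists run to 4.79.

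Taken gene by gene, the 140 genes called higher in starved wild type had a median log2 difference of 0.03 in the mutant (quartiles -0.07 and 0.09), against 1.85 in wild type. Their median level was 12.6 FPKM in the starved mutant and 11.2 FPKM in the mutant with sulfate, and 65.8 and 11.7 FPKM in the same media in wild type. In the mutant 0 of the 140 passed (limma, adjusted p under 0.05), where 0.318% of all tested genes passed as higher. At an unadjusted p under 0.05 the count was 6 of 140, against 851 of 5035 in all, and limma-voom on estimated read counts also gave 0. Of the 140, 80 lay above 0 and 60 below, and the starved replicates were all higher for 13 (9.29%, against 12.7% of all tested genes). The response differed between the strains for 137 of them (interaction, adjusted p under 0.05), against 13.9% of all tested genes. This count reuses the wild-type values by which the 140 were chosen, so it is not independent evidence. The mutant intervals of 127 stayed within 1 log2 unit of 0. Those of 138 did not meet the interval of the same gene in wild type, which again reuses the wild-type values. In the mutant, 78 of the 140 reached a mean of 10 FPKM in a medium, and the others were tested through their wild-type level. At low levels the added 1 FPKM draws log2 differences and their intervals toward 0. For *suc-2*, the mutant ratio of means was 2.02 but the log2 difference 0.12. Narrow intervals of such genes are thus no sign that they did not change. In 3 of the 140, both mutant groups were at the floor of 3 reads.

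A few of these genes kept a difference in the wild-type direction that the test did not separate from 0. *mdr-7* (NCU01095), a predicted drug transporter gene of the major facilitator superfamily, had 6.05, 6.79 and 5.12 FPKM in starved *cys-3*- cells, against 2.21, 2.39 and 4.79 FPKM in *cys-3*- cells with sulfate. The groups do not overlap, but the third library with sulfate was close to the starved ones, and the 1.91-fold difference gave an adjusted p of 0.152 (limma; log2 difference 0.80, interval 0.25 to 1.36). In wild type the gene rose 7.62-fold, and the responses differed (adjusted p = 0.00968, limma). The transporter genes NCU10512 and NCU09678, of the same superfamily, were 1.81-fold (adjusted p = 0.286, limma) and 1.58-fold (adjusted p = 0.361, limma) higher in the starved mutant, at 1.03 to 4.49 and 0.520 to 1.58 FPKM over the 6 libraries.

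The 17 genes called lower in starved wild type stood apart from the 140. Their median log2 difference was -0.51 in the mutant (quartiles -0.76 and -0.16) and -1.11 in wild type, 15 of 17 lay below 0 in the mutant, and the starved replicates were all lower for 7 (41.2%, against 16.4% of all tested genes). Only *emp-11*, described with the falls of the mutant, passed (0.0993% of all tested genes passed as lower). Against the mean of the mutant libraries with sulfate, the median of the 17 was -0.68, -0.36 and -0.24 in starved replicates 1, 2 and 3, so replicate 1 lay farthest from 0. Without mutant 24 μM replicate 2 the median of the 17 was -0.19. The response differed between the strains for 6 of the 17, against 13.9% of all tested genes, a count that reuses the wild-type values by which the 17 were chosen. The 6 were *sut-22* (a predicted sugar transporter gene), *ce3-1*, *ccg-9* (trehalose synthase), *sit-9* (a predicted siderophore transporter gene), NCU00984 and NCU07888, with mutant log2 differences of -0.21, -0.16, -0.10, 0.27, -0.02 and 0.06. When all 602 genes lower in starved wild type at an adjusted p under 0.05 were taken, the mutant median was -0.03, with 170 genes (28.2%) whose starved mutant replicates were all lower and 4 that passed lower.

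Heat shock protein genes made up 3 of the 17, and the whole family lay below 0 in the mutant. All 12 tested heat shock protein genes, chosen by symbol, were below 0 in the mutant (median -0.24, range -1.04 to -0.08), as were 54.3% of all tested genes. Starved replicates were all lower for 9 of the 12, against 16.4% of all tested genes. By limma or limma-voom 0 passed (smallest adjusted p = 0.108, limma). At an unadjusted p under 0.05 limma gave 5 of the 12, against 16.9% of all tested genes. All 12 stayed below 0 on leaving out any 1 mutant library but starved replicate 1, without which 11 did, and the median was -0.14 without mutant 24 μM replicate 1. In wild type 4 of the 12 lay above 0 and 8 below. *hsp30* (NCU09364), for a small heat shock protein, had 71.7, 88.5 and 142 FPKM in starved *cys-3*- cells, against 197, 193 and 212 FPKM in *cys-3*- cells with sulfate. The groups do not overlap and the mean was 1.99-fold lower, with an interval of -1.67 to -0.41 and an adjusted p of 0.108 (limma). Wild type lowered *hsp30* 4.67-fold, and the difference between the strains was 1.049 on the log2 scale (adjusted p = 0.114, limma). *hsp98* (NCU00104), for a disaggregating chaperone, averaged 67.1 ± 11.7 FPKM in the starved mutant and 97.7 ± 1.73 FPKM in the mutant with sulfate (SD, n = 3 each), a 1.46-fold lower mean with an adjusted p of 0.235 (limma), and its groups do not overlap. The mitochondrial chaperonin gene *hsp60* had 69.1, 69.6 and 68.7 FPKM in the starved mutant, against 116, 88.6 and 86.4 FPKM in the mutant with sulfate (adjusted p = 0.23, limma).

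Further genes of the 17 had larger ratios of means in wild type than in the mutant, with no difference between the strains that passed the test. The 17 were chosen by their wild-type ratio, which favours a larger ratio there. *hsp30-2* (NCU07232), for another small heat shock protein, had 29.8, 38.9 and 49.3 FPKM in the starved mutant, against 46.4, 99.7 and 69.9 FPKM in the mutant with sulfate. These groups overlap, and the mean was 1.83-fold lower (adjusted p = 0.162, limma), against a 3.67-fold lower mean in wild type (interaction 0.93, adjusted p = 0.13, limma). *orp-1* (NCU01735) had 61.8, 68.1 and 113 FPKM in the starved mutant, against 115, 145 and 141 FPKM in the mutant with sulfate. The groups do not overlap, though starved replicate 3 came close, and the mean was 1.66-fold lower (adjusted p = 0.258, limma), against 4.53-fold lower in wild type (interaction 1.35, adjusted p = 0.0693, limma). The zinc finger gene *znf-19* had 30.5, 28.2 and 38.9 FPKM in the starved mutant, against 56.6, 56.6 and 57.6 FPKM in the mutant with sulfate (1.75-fold lower, adjusted p = 0.154, limma). The alcohol dehydrogenase gene *adh-8* and the formate dehydrogenase gene *fdh* were 1.58-fold and 1.44-fold lower (adjusted p = 0.217 and 0.143, limma). For *znf-19*, *adh-8* and *fdh* the starved replicates were all lower, and the responses did not differ detectably between the strains.

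The 21 genes that passed in the mutant were mostly genes without a symbol, with log2 differences of 0.36 to 0.97 for the rises and -0.85 to -0.31 for the falls and adjusted p from 0.0197 to 0.0473 (limma). The starved replicates did not overlap the others for any of the 21. Of these genes 7 changed in the same direction in wild type at an adjusted p under 0.05, 3 changed in the opposite direction, and 11 did not pass in wild type. Promoters of 2 of the 21 (9.52%) bound CYS-3 in vitro, against 363 of all tested genes (7.21%). The loci of 6 overlap another gene (27.9% of tested genes do), and reads without strand cannot be told apart there.

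**Figure D4:**
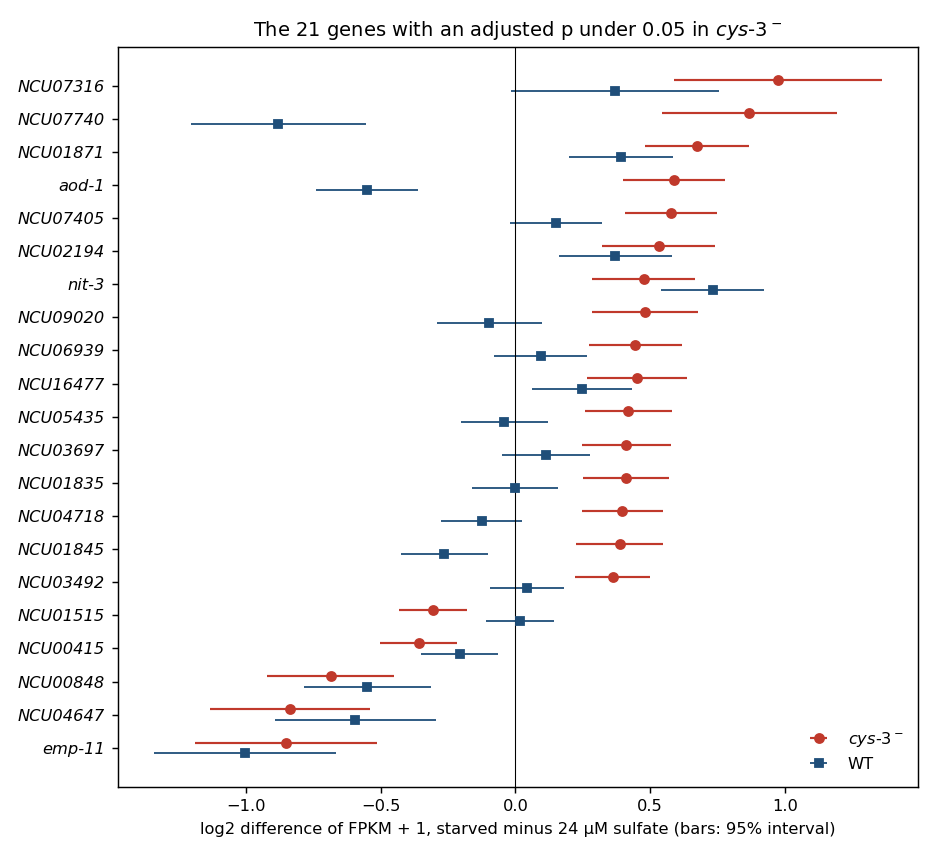
Log2 difference (FPKM + 1, starved minus 24 μM sulfate) with its 95% interval for the 21 genes that passed in *cys-3*-, in *cys-3*- and in wild type (WT), ordered by the mutant ratio of means. The 16 rises and 5 falls of the mutant lie at 0.36 to 0.97 and at -0.85 to -0.31. Wild-type intervals wholly on the other side of 0 are those of *aod-1*, NCU07740 and NCU01845, while some other genes have wild-type points there with intervals that include 0.

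The 1 gene called at 2-fold was NCU07316 (chromosome IV, 4389350 to 4390577), for a hypothetical protein, with 26.4, 26.7 and 21.9 FPKM in starved *cys-3*- cells, against 10.6, 12.3 and 13.9 FPKM in *cys-3*- cells with sulfate. It was 2.04-fold higher (log2 difference 0.97, interval 0.59 to 1.36, adjusted p = 0.0412, limma), but it shares 1105 bp with NCU16848. NCU01871 and NCU07405 had the smallest adjusted p, 0.0197 for both (limma). NCU01871 had 440.3, 439.8 and 433 FPKM in the starved mutant, against 254, 264 and 308 FPKM in the mutant with sulfate, and NCU07405 had 327, 309 and 326 FPKM starved, against 197, 228 and 219.9 FPKM with sulfate. They rose 1.59-fold and 1.49-fold. Nitrate reductase gene *nit-3* (NCU05298; chromosome IV, 5420216 to 5423422), whose product starts nitrate assimilation, had 60.5, 61.2 and 70.5 FPKM in starved mutant cells, against 43.0, 44.8 and 49.5 FPKM in mutant cells with sulfate. It rose 1.40-fold in the mutant (log2 difference 0.48, interval 0.29 to 0.67, adjusted p = 0.0412, limma) and 1.68-fold in wild type, and the responses did not differ detectably (interaction -0.25, adjusted p = 0.203, limma). Its starved libraries lay above those with sulfate in both strains. NCU02194, NCU09020, NCU06939 and NCU16477 rose 1.46-fold, 1.40-fold, 1.38-fold and 1.38-fold, the first with 2253 bp shared with *aap-23*. The most abundant was NCU01835, at 1261 ± 61.1 FPKM in starved mutant cells and 949 ± 60.4 FPKM in mutant cells with sulfate (SD, n = 3 each).

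The 5 falls were led by the phosphoglycerate mutase gene *emp-11* (NCU09489; chromosome II, 4442223 to 4443601), for an enzyme of glycolysis. It had 8.46, 12.2 and 8.75 FPKM in starved *cys-3*- cells, against 20.5, 17.2 and 17.2 FPKM in *cys-3*- cells with sulfate. The mean was 1.87-fold lower in the mutant (log2 difference -0.85, interval -1.19 to -0.51, adjusted p = 0.0412, limma) and 2.08-fold lower in wild type. NCU04647 had 12.9, 13.02 and 13.9 FPKM in the starved mutant, against 29.9, 22.1 and 22.3 FPKM in the mutant with sulfate. NCU00848 had 24.2, 22.8 and 24.6 FPKM in the starved mutant, against 40.5, 40.2 and 36.3 FPKM in the mutant with sulfate. These genes fell 1.86-fold and 1.63-fold, and both fell in wild type too, by 1.54-fold and 1.49-fold. NCU00415 fell 1.30-fold, and NCU01515 fell 1.24-fold in the mutant, with a wild-type ratio of 1.01.

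Some genes moved in opposite directions in the strains. *aod-1* (NCU07953; chromosome IV, 1234976 to 1237012), for the alternative oxidase that passes electrons from ubiquinol to oxygen without the cytochrome chain, had 66.8, 72.1 and 73.1 FPKM in starved *cys-3*- cells, against 42.1, 50.97 and 47.3 FPKM in *cys-3*- cells with sulfate. It rose 1.51-fold (log2 difference 0.59, interval 0.40 to 0.78, adjusted p = 0.0283, limma). In wild type it fell 1.48-fold, to 35.7, 37.6 and 33.1 FPKM in starvation, against 57.1, 51.6 and 48.7 FPKM in 24 μM sulfate, and the responses differed by 1.14 (adjusted p = 5.7e-05, limma). The gene *aod-5*, grouped with *aod-1* by its symbol alone, was 1.14-fold higher in the starved mutant (log2 difference 0.18, adjusted p = 0.229, limma). Its responses differed too (adjusted p = 0.0156, limma). NCU07740 had 12.7, 12.6 and 9.77 FPKM in the starved mutant, against 5.33, 5.19 and 7.41 FPKM in the mutant with sulfate (1.95-fold higher, adjusted p = 0.0412, limma). In starved wild type it was 2.08-fold lower, and the responses differed by 1.75 (adjusted p = 1.6e-04, limma). NCU01845 was 1.31-fold higher in the starved mutant and 1.204-fold lower in starved wild type.

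Genes of arginine synthesis lay on opposite sides of 0 in the strains, without passing in the mutant. All 9 tested members had mutant log2 differences above 0 (median 0.25), and 0 passed by limma or limma-voom (smallest adjusted p = 0.174, limma). By limma, 4 had an unadjusted p under 0.05. All 9 lay below 0 in wild type (median -0.33), and the response differed between the strains for 5 of them. Over all tested genes, 45.7% lay above 0 in the mutant, 16.9% had an unadjusted p under 0.05 there and 13.9% differed in response. For 0 of the 9 were the mutant groups free of overlap, against 12.7% (higher) and 16.4% (lower) of all tested genes. *arg-3* (NCU02677), for a subunit of carbamoyl-phosphate synthetase, shares 1101 bp with NCU02678, where reads without strand cannot be told apart. It had 205, 169 and 146 FPKM in starved *cys-3*- cells, against 94.5, 92.5 and 167 FPKM in *cys-3*- cells with sulfate. The third library with sulfate thus lay within the starved range, and the 1.47-fold difference had an adjusted p of 0.174 (limma). Without that library *arg-3* and *arg-12* passed and the median of the 9 was 0.39, and without mutant 24 μM replicate 1 the median was 0.13. The 10 genes of aromatic amino acid synthesis were above 0 in the mutant (median 0.19) and below 0 in wild type (median -0.26), again with 0 that passed in the mutant by either tool (3 at an unadjusted p under 0.05, limma), and 6 whose responses differed. Their mutant median was 0.096 without mutant 24 μM replicate 1 and 0.30 without replicate 3.

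One mutant library with sulfate, replicate 3, correlated more closely with starved replicates 1 and 2 than with its own group. This did not hold for starved replicate 3. Over tested genes its correlation was 0.993 to 0.995 with the 3 starved libraries and 0.992 and 0.993 with its own group, whereas replicates 1 and 2 of its group had 0.984 to 0.987 and 0.990 to 0.992 with the starved libraries. Its value lay within the starved range for 37.1% of tested genes, against 25.6% and 34.2% for replicates 1 and 2. Replicate 3 nevertheless deviated least from its group, with an SD over genes of 0.114 on the log2 scale, against 0.135 and 0.123 for replicates 1 and 2. Nothing in the labels sets this library apart. Without replicate 1 of the same group, 0 genes passed. Without replicate 3, 48 genes passed (41 rises and 7 falls), 19 of them among the 21, and 9 rises and 1 fall were called at 2-fold.

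The genes gained in that way included the aromatic aminotransferase gene *val-2* (NCU09116), with 131, 110.3 and 85.6 FPKM in the starved mutant, against 42.1, 52.5 and 95.2 FPKM in the mutant with sulfate. The acetyltransferase gene NCU04583 had 371, 309 and 225 FPKM in the starved mutant, against 88.2, 126 and 259 FPKM in the mutant with sulfate. NCU06376 had 105, 75.2 and 46.3 FPKM in the starved mutant, against 18.5, 32.2 and 64.3 FPKM in the mutant with sulfate. In each of these genes replicates 1 and 2 with sulfate lay below the starved libraries and replicate 3 lay among them. The genes were picked because they passed only without replicate 3, so its place there follows from that choice and is not independent evidence. With all libraries the adjusted p was 0.135 for *val-2* (log2 difference 0.84, interval 0.29 to 1.39), 0.136 for NCU04583 (1.051, interval 0.36 to 1.74) and 0.171 for NCU06376 (1.06, interval 0.29 to 1.83; all limma). In 6 of the 10 genes called at 2-fold without replicate 3, that library lay within the starved range, a count that the same choice favours. Other genes of amino acid metabolism were among the 10, the aminotransferase gene NCU11365 and *gly-3*, for a glycine cleavage system protein, both 1.74-fold higher in the starved mutant with all libraries (adjusted p = 0.102 for each, limma). NCU11365 shares 808 bp with NCU11364 and *gly-3* shares 1581 bp with NCU02726, so their values are uncertain. Of the genes of sulfur regulation, sulfate to sulfide, sulfur transport and other sulfur sources, 0 passed without that library.

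**Figure D5:**
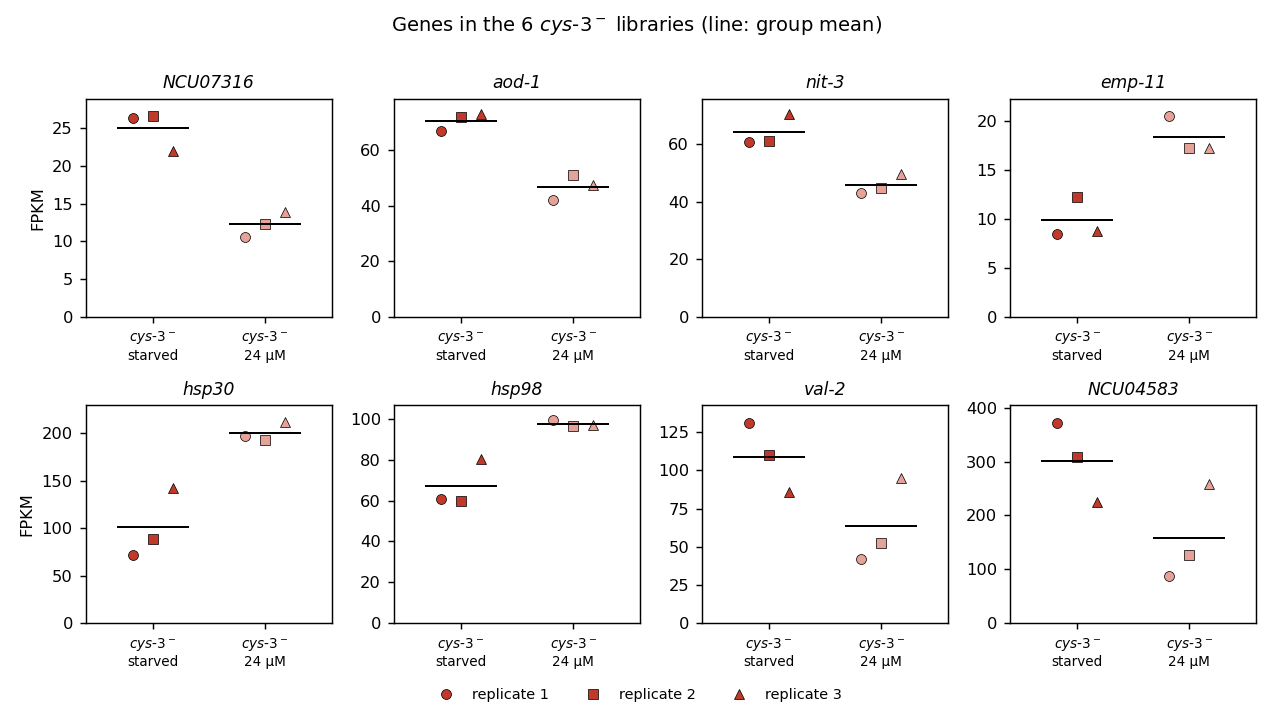
FPKM of 8 genes in the 6 *cys-3*- libraries (symbols for replicates 1 to 3, line at the group mean), starved on the left and 24 μM sulfate on the right of each panel. NCU07316, *aod-1* and *nit-3* are higher and *emp-11* is lower in all starved libraries, starved replicate 3 is nearest to the libraries with sulfate for *hsp30*, and for *val-2* and NCU04583 replicate 3 with sulfate lies among the starved libraries.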

How the data were processed

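RNA from 12 mycelial cultures was analysed, 6 of them *cys-3*-, grouped by strain and medium from the sample labels (3 libraries a group). The authors aligned 90-bp single-end reads to the genome, with HISAT2 2.1.0 per the submitters' processing notes, and used Cufflinks 2.2.1 for the FPKM they deposited, without strand and without scaling between libraries. FPKM of a library summed to 561602 to 584215. Depth is given as implied reads, (2F/(H - F)) squared, for FPKM F and its deposited upper bound H. Of 9758 genes, 9757 matched the RefSeq table (NC12) by locus tag, and 4 with a failed status were not tested. A level resting on few reads is imprecise, and 3 reads were taken as the floor.

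Log2(FPKM + 1) values of all 12 libraries were fitted with limma 3.58.1 in R 4.3.3 (1 mean per group, moderated variances with a trend), for the 5035 genes whose mean reached 10 FPKM in any group. Adjustment of p-values followed Benjamini and Hochberg. A call needed an adjusted p under 0.05 and a ratio of group mean FPKM of at least 2 (or 1.5), with 10 FPKM in 1 of the groups compared. Folds printed are ratios of group means, and intervals are 95% limits of the log2 difference. The mutant and wild-type contrasts compare different libraries but share the estimate of spread and the set of tested genes. An exact permutation test of 3 against 3 cannot go below p = 0.1. The scripts were tested on simulated data, with pandas 2.3.3, numpy 2.4.6 and matplotlib 3.10.9 for tables and plots.

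Genes named were those called at 2-fold in the mutant, the 10 rises and falls with the largest ratio that passed without overlap, all members of the sulfur regulation, sulfate to sulfide and transporter lists, list or family members called at 1.5-fold, the 5 wild-type rises and falls with the largest mutant ratio, and the most abundant 1.5-fold calls. The other genes named (*tdo*, *chol-16*, *mox-7*, *gst*, *arg-3*, *arg-12*, *aod-5*, *eas*, *hsp60*, NCU03534, those gained without replicate 3, and further members of the 17 wild-type falls and of the 21 genes that passed in the mutant) were chosen after their values were seen. Lists came from the study's text and supplements, families from gene symbols. All members and lists were chosen with earlier results of these data known. The mycelial label has no positive marker here; conidiation and mat A genes stand for another stage and mating type. Alternatives were folds on the log2 scale, a minimum of 1 FPKM or none, a pseudocount of 0.1, upper quartile scaling, quantile normalization, no variance trend, a replicate block, a fit to 1 strain alone, and leaving out each library in turn.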

Additional observations from a re-analysis of the deposited data

Results flagged for a closer look

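The starvation response differed between *cys-3*- and wild-type cells, by the interaction term of the fit (limma, adjusted p under 0.05), for 160 genes at 2-fold or more, and for these named genes. Values are the log2 response of the mutant minus that of wild type. In the CYS-3 circuit and sulfate assimilation they were -1.28 for *cys-3*, -1.55 for *scon-2*, -0.81 for *cys-11*, -1.93 for *cys-5*, -1.16 for *cys-2* and -0.71 for *cys-4*. Transporter genes gave -4.89 for *trm-50*, -1.67 for *cys-13*, -6.13 for *cys-14*, -3.36 for *aap-7*, -2.95 for *aap-10*, -1.68 for *mdr-7*, -3.10 for NCU10512 and -4.13 for NCU09678. *aap-23*, whose locus overlaps NCU02194, gave -5.24. The taurine dioxygenase gene *suc-2* gave -6.68 and the arylsulfatase gene *ars-1* -6.22. All of these rose in wild type and did not pass in the mutant.

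Among genes that rose in the mutant, the differences were 1.75 for NCU07740, 1.14 for *aod-1*, 0.65 for NCU01845, 0.58 for NCU09020, 0.52 for NCU04718, 0.46 for NCU05435, 0.43 for NCU07405, 0.41 for NCU01835 and 0.32 for NCU03492. The gene NCU01515, lower in the starved mutant, gave -0.32. Genes that fell in wild type and did not pass in the mutant gave 1.41 for *sut-22*, 1.502 for *sit-9*, 1.54 for *ccg-9*, 0.79 for *ce3-1*, 1.06 for NCU00984 and 1.03 for NCU07888. Whether these differences stem from the strain or from other differences between the cultures of each strain was not tested.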

How the results depend on the processing

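The number of genes with an adjusted p under 0.05 in the mutant (21) was 11 with an FPKM minimum of 1, 8 with none, 64 in a fit of only the mutant groups, 5 without a variance trend, 8 with limma-voom on implied reads (7 of them among the 21) and 0 to 50 on leaving out 1 library. The voom fit, and leaving out mutant libraries for the medians below, were chosen after seeing the data. The 1.5-fold calls (7) came to 18 in the fit of only the mutant groups, 2 with voom, 3 with no minimum, 4 without a trend and 0 to 29 on leaving out 1 library. The 1 rise at 2-fold became 0 with folds on the log2 scale, with voom and without a trend, 3 with quantile normalization and 0 to 9 on leaving out 1 library, and the 0 falls became 0 to 1. Wild-type falls (17) were 34 with an FPKM minimum of 1, 36 with none and 5 to 33 on leaving out 1 library. Wild-type genes with an adjusted p under 0.05 (1160) numbered 675 in a fit of only the wild-type groups and 679 to 1376 on leaving out 1 library. On leaving out 1 library, interaction calls higher in the mutant (22) ranged from 13 to 34 and genes with an interaction adjusted p under 0.05 (698) from 453 to 747. On leaving out 1 mutant library, the mutant median of the 140 wild-type rises (0.03) ranged from -0.020 to 0.039, and that of the 17 falls (-0.51) from -0.57 to -0.19, while it was -0.027 over all falls with an adjusted p under 0.05. The cause of these moves was not tested, beyond the fewer libraries or other genes that each alternative holds.

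The mutant log2 difference changed sign on leaving out a library for genes near 0: *scon-2* (-0.039 to 0.037), *cys-2* (-0.10 to 0.20), *adsk-1* (-0.094 to 0.19), *trm-50* (-0.12 to 0.19), *cys-23* (-0.071 to 0.052, and 0.0038 with upper quartile scaling), *cys-14* (-0.028 to 0.24), *ncw-5* (-0.46 to 0.10), NCU00984 (-0.15 to 0.058), NCU07888 (-0.062 to 0.14), *ccg-9* (-0.34 to 0.028), *tdo-4* (-0.56 to 0.12) and *mox-7* (-0.13 to 0.068).

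Same-numbered libraries did not deviate together (r of -0.08, -0.06 and -0.23 in the mutant), so the replicate numbers do not pair them. With the number as a block, 3 genes had an adjusted p under 0.05 in the mutant, 2 of them at 1.5-fold and 0 at 2-fold.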
